A study of Mus musculus with 9 samples.

Results

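The count table of this series holds 346 transcribed loci that carry no Ensembl gene ID, out of 54878 rows in all. They were chosen by their identifier alone, whatever their level, and each is called here by the number in that identifier (locus 204). The table gives each locus a chromosome, a start, an end, a strand, an exonic length and, for 110 of them, the protein domains predicted in the transcript. Of the 346 loci, 225 passed the filter on low counts and were tested together with the annotated genes, which made 16433 features. The 225 are thus the better expressed loci and not the whole set.

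The 9 libraries came from mouse stem cell cultures of strain Sv129 x GOF/GFP F1, with 3 libraries for each of 3 cell types. AFSCs came from blastocyst outgrowths kept in Activin A with bFGF and were taken at passages 15 to 20. Their label likens them to epiblast stem cells, a primed kind of pluripotent cell. ALSCs were made from AFSCs in a medium with Activin A and LIF (leukaemia inhibitory factor) and were taken at passages 20 to 25. The protocol in the labels prints the LIF recipe under the abbreviation of the other medium, so this assignment rests on the names. ABSCs were made from AFSCs in Activin A and BMP4, are labelled as resembling trophoblast stem cells, and were taken at passages 25 to 30. All media shared the same serum-free base. Passage and cell type cannot be told apart, and the labels do not say whether the 3 libraries of a cell type came from separate cultures, so p-values measure only the spread between these libraries.

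Assemblers of RNA-seq reads report a transcribed locus wherever reads pile up outside the annotation. In the mouse, many such places are endogenous retroviruses, remnants of past infections of the germ line that keep their long terminal repeats, gag, pol and env genes, and LINE-1 elements, which copy themselves through a reverse transcriptase of their own. Both kinds are known to be transcribed in early embryos and pluripotent cells, where DNA and histone methylation hold most copies silent. Copies of one family are nearly alike in sequence, so the counts of a single copy depend on how the aligner placed reads that fit several copies, and the levels of such loci are uncertain for that reason.

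Library totals ran from 19020419 to 21627656 counts, and the loci took 0.208% to 0.227% of them. Pou5f1, the pluripotency factor, stood at 904 to 1264 CPM (counts scaled to a common library size with the TMM factors of edgeR) in all 9 libraries. Fgf5, which marks primed pluripotent cells, stood at 183 to 193 CPM in AFSCs, 119 to 165 CPM in ALSCs and 13.5 to 18.3 CPM in ABSCs. The other genes of the primed list changed less in ABSCs against AFSCs. Their log2 fold changes were -0.34 for Otx2, -0.52 for Pou3f1 and 0.19 for Pou5f1 (edgeR adjusted p = 0.00999, 0.00497 and 0.0443). The 4 genes, mostly Pou5f1, summed to 1502 to 1590 CPM in AFSCs, 1237 to 1349 in ALSCs and 1396 to 1488 in ABSCs. Hand1, a trophoblast and mesoderm factor, stood at 188 to 244 CPM in ABSCs and at most 2.51 CPM elsewhere. The 6 genes of the BMP4 and trophoblast list, Hand1 among them, summed to 351 to 424 CPM in ABSCs, 82.2 to 153 in AFSCs and 61.9 to 169 in ALSCs. Of the others, the BMP target Id1 (log2 fold change 4.85, edgeR adjusted p = 0.000116) and the trophoblast factor Cdx2 (5.05, edgeR adjusted p = 0.00839, at 0.834 to 6.45 CPM in ABSCs) were higher in ABSCs than in AFSCs, while Eomes was not called (-0.06, edgeR adjusted p = 0.975). Eomes made up most of that sum in AFSCs (78.5 to 150 CPM) and in ALSCs (52.9 to 164 CPM). Gata3 (0.392 to 1.10 CPM in ABSCs) and Elf5 (at most 0.0506 CPM in ABSCs), also trophoblast factors, did not pass the filter on low counts. Socs3, a LIF target, stood at 39.7 to 62.9 CPM in ALSCs and at most 6.08 CPM elsewhere. The 6 fibroblast markers summed to 17.1 to 18.8 CPM in AFSCs, 10.2 to 24.5 in ALSCs and 10.5 to 19.5 in ABSCs. The 4 endoderm markers, with Afp at 0 in AFSCs and ALSCs, summed to 16.0 to 20.5, 18.8 to 25.4 and 0.196 to 0.944 CPM, and their part in the results below was not tested.

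Sequence could be read only where a RefSeq promoter window, 250 bases before to 50 bases after a gene's start on GRCm38.p6, met or lay close to one of the loci described below. Windows at 4 loci that differed between cell types are shown, because each places the locus against a known start. Capitals mark the bases that lie within the span of the locus. Cyb5r1 reads away from locus 19, Gm34267 starts 15 bases from the 5′ end of locus 32 and on its strand, the start that RefSeq's promoter table gives for Hpca lies 399 bases beyond the 3′ end of locus 232 on the same strand, and Gm9564 starts inside locus 310.

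Cyb5r1 (locus 19), chr1:134405531-134405830, plus strand: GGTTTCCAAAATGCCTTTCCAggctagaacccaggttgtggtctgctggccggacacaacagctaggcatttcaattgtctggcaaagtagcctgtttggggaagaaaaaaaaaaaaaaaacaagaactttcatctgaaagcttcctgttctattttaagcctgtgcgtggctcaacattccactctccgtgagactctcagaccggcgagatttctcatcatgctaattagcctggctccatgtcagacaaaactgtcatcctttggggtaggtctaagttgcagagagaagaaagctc
Gm34267 (locus 32), chr10:22058605-22058904, minus strand: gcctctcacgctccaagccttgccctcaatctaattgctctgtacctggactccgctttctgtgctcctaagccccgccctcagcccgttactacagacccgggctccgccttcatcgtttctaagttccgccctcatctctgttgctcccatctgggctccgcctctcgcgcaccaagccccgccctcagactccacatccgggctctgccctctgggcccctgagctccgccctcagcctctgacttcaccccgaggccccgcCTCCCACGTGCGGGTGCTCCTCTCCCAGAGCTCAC
Hpca (locus 232), chr4:129121698-129121997, minus strand: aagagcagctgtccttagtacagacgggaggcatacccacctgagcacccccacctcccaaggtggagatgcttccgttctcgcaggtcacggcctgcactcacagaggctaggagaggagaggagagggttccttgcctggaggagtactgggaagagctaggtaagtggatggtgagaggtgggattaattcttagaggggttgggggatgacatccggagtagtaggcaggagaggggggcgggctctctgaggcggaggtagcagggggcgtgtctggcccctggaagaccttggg
Gm9564 (locus 310), chr8:112028254-112028553, minus strand: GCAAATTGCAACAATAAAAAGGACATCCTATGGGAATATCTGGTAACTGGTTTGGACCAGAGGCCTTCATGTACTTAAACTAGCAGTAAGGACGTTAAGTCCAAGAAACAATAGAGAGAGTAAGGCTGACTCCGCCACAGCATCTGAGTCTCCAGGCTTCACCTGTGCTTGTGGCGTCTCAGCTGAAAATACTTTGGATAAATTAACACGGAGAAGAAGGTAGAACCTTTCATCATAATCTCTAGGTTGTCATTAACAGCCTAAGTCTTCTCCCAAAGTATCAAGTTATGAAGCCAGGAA

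The windows differed in base composition. The Gm34267 window held 18 CG dinucleotides and 64.7% G and C, against medians of 7 and 52.7% over the 32851 RefSeq windows. The Hpca window held 8 CG dinucleotides, the Cyb5r1 window 5 and the Gm9564 window 4, with 60.3%, 45.7% and 42.3% G and C. In the Cyb5r1 window 21 bases belong to locus 19 and in the Gm34267 window 35 belong to locus 32, while the Hpca window shares none with locus 232 and all 300 bases of the Gm9564 window lie within locus 310.

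By their predicted domains the loci fell into 5 classes. Retroviral domains (integrase, reverse transcriptase, gag, protease or env) were found in 80 loci, of which 52 were tested, and their median exonic length was 5142 bp. LINE-1 domains were found in 11 loci (10 tested, median 3170 bp), zinc fingers in 6 (3 tested) and domains of other cellular proteins in 13 (7 tested). The other 236 loci had no domain, and they were short, with a median of 717.5 bp (153 tested). A group of 46 loci carried the integrase DNA binding domain and no other domain. These had a median length of 5374 bp, and they held 49.6% of all counts on the loci. Of the 346 loci, 222 were a single block without an intron and 124 had several blocks. Over all loci the exonic length ran from 207 to 10237 bp, with a median of 1149.5 bp.

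**Figure D1:**
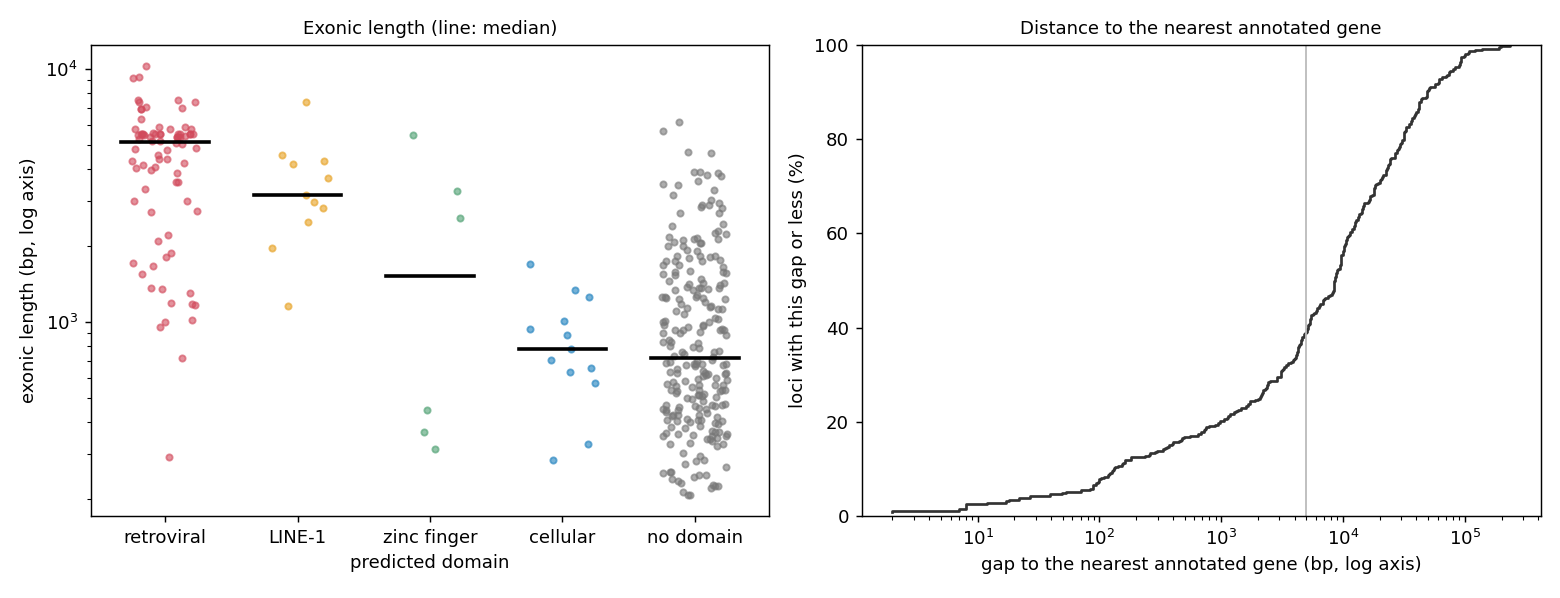
Left, the exonic length of each of the 346 loci (points, log axis in bp) by predicted domain, with the median as a black line. Right, the percent of the 345 loci with a nearest annotated gene whose gap to it is at most the value on the x axis (log axis in bp, with 5000 bp marked). Retroviral loci sit around 5142 bp and loci without a domain around 717.5 bp, and the median gap is 8571 bp.

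Most loci lay within 50000 bp of an annotated gene, and no background of gaps was worked out for comparison. The median gap to the nearest Ensembl gene of the table was 8571 bp, with 70 loci within 1000 bp, 135 within 5000 bp and 312 within 50000 bp. Only 2 overlapped an Ensembl gene of the table, and the longest gap was 233148 bp. The nearest gene was protein coding for 162 loci. Within 5000 bp, 41 loci lay upstream of the gene on its strand, 36 upstream on the other strand, 21 downstream on its strand and 35 downstream on the other strand. RefSeq genes of GRCm38.p6 overlapped 137 loci, and genes of GENCODE M21 overlapped 15, so "without an Ensembl ID" does not mean unknown to every annotation. Some loci ended a few bases from a gene: locus 148 lay 8 bp upstream of Vars (valyl-tRNA synthetase), and locus 228 lay 8 bp downstream of Trp53inp1 (a p53-induced protein). Chromosome 12 held 34 loci, 9.83% of them, against 4.55% of the Ensembl genes. In all, 120 loci lay in 51 clusters with gaps of at most 10000 bp, and the largest cluster held 8.

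Overlap between loci went with missing counts. Of the 346 loci, 83 overlapped another locus, and for 74 of these every partner was on the opposite strand. All 47 loci with 0 counts in all 9 libraries were among the 83, and 0 of the other 263 loci were empty. Since the kit does not mark the strand, reads from the strands of such a pair cannot be told apart. Locus 102 and locus 105 span nearly the same bases on opposite strands, yet locus 102 stood at 672 CPM and locus 105 at 0.0114 CPM. Of the 16 overlapping loci at 1 CPM or more, 10 had only partners under 1 CPM. Because the kit does not mark the strand, these libraries cannot check the strand given in the table. Why the counts fell mostly on 1 locus of many such pairs was not tested.

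A few loci held most of the counts. Locus 102 (chr13:113718410-113723955, a single block with the integrase DNA binding domain, 31869 bp downstream of the lincRNA Gm34586) took 30.45% of all counts on the loci, and the 10 loci with the highest mean level took 57.3%. A mean of 1 CPM was reached by 159 loci, 10 CPM by 34 and 100 CPM by 2. Locus 102 stood at 665, 684 and 693 CPM in AFSCs, 657, 662 and 598 CPM in ALSCs and 651, 728 and 709 CPM in ABSCs. The 3 groups overlapped, and none of the 3 comparisons called it (log2 fold change 0.03 in ABSCs against AFSCs, edgeR adjusted p = 0.854). Per kb of exon the highest level was that of locus 240 (chr5:88162456-88168004, 345 bp of exon in several blocks, no domain), at 378 CPM per kb against 121 CPM per kb for locus 102 and a median of 0.972 over the 346 loci. Locus 240 lay between 113 and 145 CPM in every library and was not called in any of the 3 comparisons (edgeR adjusted p = 0.241 for any difference), although the fit with the replicate number as a block called it in ABSCs against ALSCs (0.18, edgeR adjusted p = 0.0461). Loci 148, 237 and 128, also among the 10 highest, were likewise not called, except that the block called locus 237 in ABSCs against AFSCs (-0.42, edgeR adjusted p = 0.0135). Their means over the 9 libraries were 57.4 CPM for locus 148, 51.6 CPM for locus 237 and 45.4 CPM for locus 128.

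Among the 225 tested loci, 30 differed among the 3 cell types (13.3%, against a background of 14.9% of the 16433 features). AFSCs had the highest mean for 15 of these, ABSCs for 9 and ALSCs for 6. ABSCs had the lowest mean for 15, AFSCs for 9 and ALSCs for 6. By class, 12 of 52 tested retroviral loci, 3 of 10 LINE-1 loci, 15 of 153 loci without a domain and 0 of the 10 tested loci with zinc finger or other cellular domains were called. Of the tested loci that overlap a RefSeq gene 5.56% were called, and of the others 18.5%. These shares are descriptions and were not tested. In these bulk samples, fewer cells that transcribe a locus and less RNA per cell cannot be told apart. Of the 30 calls, 20 held when each of the 9 libraries was left out in turn. With the replicate number as a block 57 loci were called, or 25.3% beside a background of 37.0%. They were 16 retroviral loci, 7 LINE-1 loci, 34 without a domain and again 0 with zinc finger or other cellular domains.

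**Figure D2:**
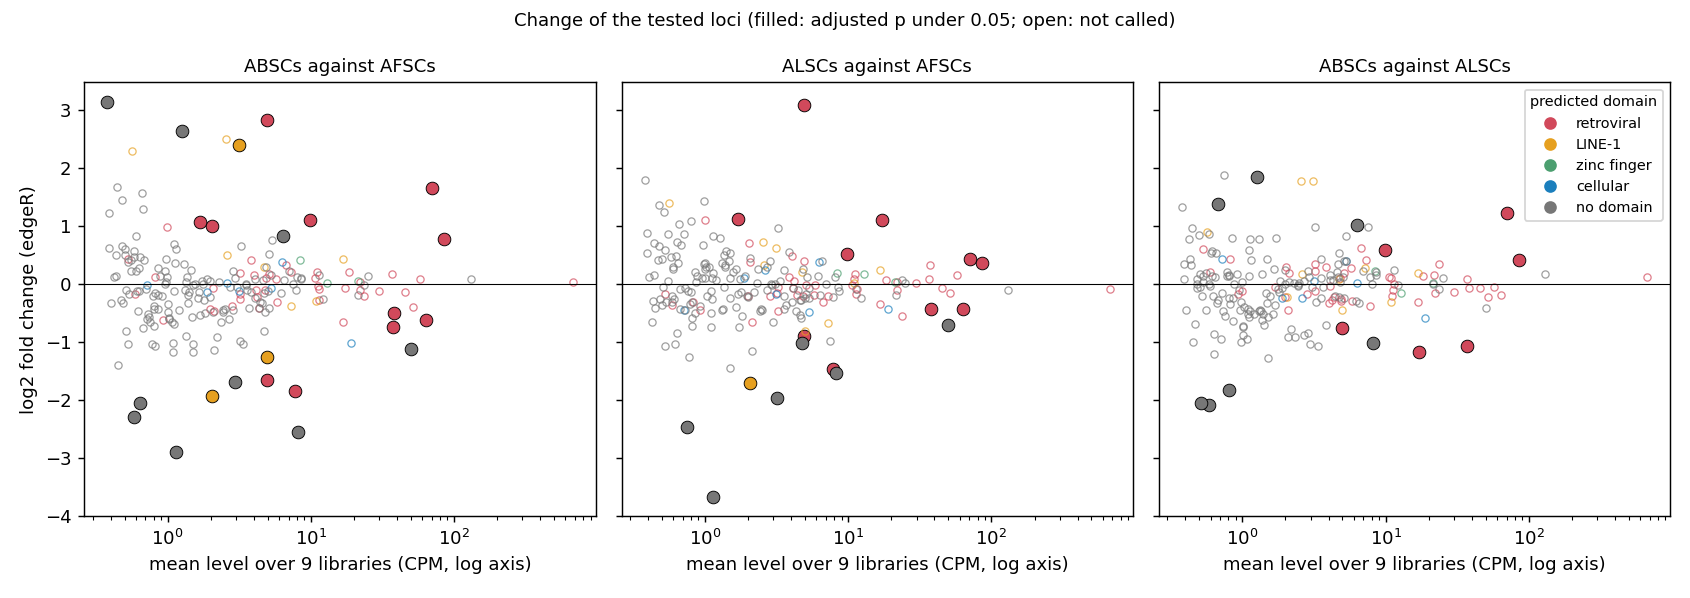
The log2 fold change of the 225 tested loci (y axis) against their mean level over 9 libraries (x axis, CPM, log axis) in the 3 comparisons, coloured by predicted domain. Filled points passed an adjusted p of 0.05 and open points did not; the most abundant locus, at 672 CPM, lies near 0 in all 3 panels.

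The comparison of ABSCs with AFSCs asks which loci differ with BMP4 in place of bFGF. It called 23 loci (background 8.06%), 10 higher in ABSCs (background 4.06%) and 13 lower (background 4.0%). Shares of the tested loci were 10.2% in all, 4.44% higher and 5.78% lower. The median log2 fold change was -0.11 over the tested loci and -0.00 over all features. With the replicate block the count was 44 (20 higher and 24 lower), or 19.6% of the tested loci beside a background of 19.5%, and it included all 23. Leaving out 1 library gave 17 to 29 calls, and 16 of the 23 held in every such fit.

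Loci higher in ABSCs were led by locus 204 (chr3:3326690-3332062, minus strand, 5373 bp in a single block with the integrase DNA binding domain), 59662 bp from the pseudogene Gm8747. It stood at 37.2, 38.2 and 39.5 CPM in AFSCs, at 49.3, 52.1 and 53.3 CPM in ALSCs and at 122, 123 and 119 CPM in ABSCs. The 3 cell types thus formed 3 separate steps, with ABSCs highest. The log2 fold change was 1.66 (SE 0.06, edgeR adjusted p = 5.76e-07) in ABSCs against AFSCs. ALSCs against AFSCs gave 0.43 (SE 0.06, edgeR adjusted p = 0.00311), and ABSCs against ALSCs gave 1.23 (SE 0.06, edgeR adjusted p = 2.21e-06).

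Neighbouring loci 243 and 244 on chromosome 5 moved together. Locus 244 (chr5:124109349-124111059, 1711 bp with gag zinc knuckle domains) lies 49 bp downstream of the lincRNA Gm16001, on the other strand, and locus 243 (chr5:124100706-124107020, 6315 bp with integrase domains) lies 4088 bp from it. Locus 244 stood at 61.6, 65.8 and 64.7 CPM in AFSCs, 83.8, 81.8 and 81.5 CPM in ALSCs and 103, 117 and 110 CPM in ABSCs. Its log2 fold change in ABSCs was 0.78 (SE 0.06, edgeR adjusted p = 7.77e-05). Locus 243 stood at 5.99 to 6.78 CPM in AFSCs, 8.59 to 9.69 CPM in ALSCs and 13.8 to 14.0 CPM in ABSCs, a log2 fold change of 1.10 (SE 0.12, edgeR adjusted p = 0.000386). Both loci thus showed the order AFSCs, ALSCs, ABSCs without overlap, and both were called in all 3 comparisons. The call of locus 243 in ALSCs against AFSCs (0.52, edgeR adjusted p = 0.0296) was lost without any 1 of 7 libraries, namely ABSCs 2 and 3, ALSCs 2 and 3 and AFSCs 1, 2 and 3. Gm16001 itself rose in ABSCs (0.81, edgeR adjusted p = 0.00739), from 7.21 ± 0.789 to 12.7 ± 1.53 CPM (SD, n = 3).

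Locus 288 (chr7:24578169-24581738, 3570 bp with a reverse transcriptase domain) lies 2099 bp downstream of Zfp575, a zinc finger gene, on its strand. It stood at 1.28, 0.849 and 0.516 CPM in AFSCs, at 11.5, 5.15 and 5.99 CPM in ALSCs and at 7.80, 5.40 and 5.77 CPM in ABSCs. ALSCs and ABSCs overlapped each other and lay above every AFSCs library. The log2 fold change was 2.84 in ABSCs (SE 0.40, edgeR adjusted p = 0.0018) and 3.10 in ALSCs (SE 0.40, edgeR adjusted p = 0.00209). Zfp575 rose too, by 1.24 in ABSCs (edgeR adjusted p = 0.00524) and 0.84 in ALSCs (edgeR adjusted p = 0.0416).

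Loci 48 and 49 form a pair upstream of Tmem94 (a transmembrane protein) on its strand, 9523 and 3431 bp from it on chromosome 11. Locus 48 (chr11:115754899-115755909) stood at 0.308, 0.613 and 0.329 CPM in AFSCs, 0.572 to 1.00 CPM in ALSCs and 2.36, 3.15 and 2.48 CPM in ABSCs (log2 fold change 2.65, SE 0.35, edgeR adjusted p = 0.00129). Locus 49 (chr11:115760553-115762001) had 1, 3 and 1 counts in the AFSCs libraries and 14, 16 and 15 in the ABSCs libraries, so its log2 fold change of 3.14 (SE 0.47, edgeR adjusted p = 0.00283) rests on few reads. Its AFSCs and ALSCs libraries (0.228 to 0.364 CPM in ALSCs) lay under the filter's minimum count of 10. Locus 49 thus entered the test only through ABSCs, the group where it was high. ABSCs were highest at both loci. Tmem94 was not called, at 54.5 ± 2.44 CPM in AFSCs and 47.9 ± 6.89 CPM in ABSCs (SD, n = 3). With the replicate block, however, Tmem94 was called lower in ABSCs than in ALSCs (-0.32, edgeR adjusted p = 0.00824), opposite to both loci. Locus 78 on chromosome 12 (chr12:68558074-68563500, 347 bp of exon, no domain) stood at 4.97 to 5.52 CPM in AFSCs, 4.36 to 4.98 CPM in ALSCs and 8.85 to 9.60 CPM in ABSCs. It was above both other cell types by 0.83 and 1.02 on the log2 scale (edgeR adjusted p = 0.00469 and 0.00144).

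The other loci higher in ABSCs were less stable. Locus 30 (1.01, edgeR adjusted p = 0.0286) and locus 64 (1.07, edgeR adjusted p = 0.0323) both have retroviral domains. The call of locus 30 was lost without ABSCs 1, ABSCs 2 or any 1 AFSCs library, and that of locus 64 was lost without any library other than ABSCs 1 and ALSCs 1. Locus 123 (chr15:45176050-45232288, LINE-1 domains) stood at 1.81 CPM in ABSCs 1 and at 8.44 and 8.80 CPM in ABSCs 2 and ABSCs 3, against 0.616 to 1.60 CPM in AFSCs. Its gap between ABSCs 1 and the highest AFSCs library was thus small, and its call (2.40, SE 0.63, edgeR adjusted p = 0.0448) was also lost without any library other than ABSCs 1 and ALSCs 1.

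Loci lower in ABSCs included abundant ones. Locus 17 (chr1:111691258-111696720, 5463 bp in a single block with the integrase DNA binding domain) lies 108213 bp from the pseudogene Gm8173. It stood at 12.7, 15.2 and 14.9 CPM in AFSCs, 4.43, 5.10 and 6.04 CPM in ALSCs and 3.63, 3.88 and 4.40 CPM in ABSCs. AFSCs stood far apart, while the highest ABSCs library (4.40 CPM) lay just under the lowest ALSCs library (4.43 CPM). The log2 fold change was -1.85 in ABSCs (SE 0.16, edgeR adjusted p = 0.000116) and -1.46 in ALSCs (SE 0.16, edgeR adjusted p = 0.000897).

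Locus 19 (chr1:134400076-134405551, 5476 bp, the same domain) ends 7 bp before Cyb5r1, a cytochrome b5 reductase, which reads the other way. It stood at 79.7, 77.5 and 83.2 CPM in AFSCs, 59.8, 57.3 and 60.7 CPM in ALSCs and 52.6, 51.5 and 52.0 CPM in ABSCs. All 3 cell types were separate. It fell by 0.62 in ABSCs (SE 0.06, edgeR adjusted p = 0.000195) and by 0.43 in ALSCs (SE 0.06, edgeR adjusted p = 0.00283) on the log2 scale. Cyb5r1 was not called in either comparison, with log2 fold changes of 0.04 and 0.07 and means of 81.2, 85.4 and 83.3 CPM in AFSCs, ALSCs and ABSCs.

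Locus 310 (chr8:112024934-112032372, 1027 bp of exon, no domain) overlaps the RefSeq gene Gm9564 and lies 4405 bp downstream of Terf2ip, which codes for a telomere protein. It stood at 13.6, 16.8 and 18.3 CPM in AFSCs, 3.20, 7.07 and 6.54 CPM in ALSCs and 2.31, 2.83 and 3.14 CPM in ABSCs. AFSCs were highest without overlap, and ABSCs were lowest. It fell by 2.55 in ABSCs on the log2 scale (SE 0.28, edgeR adjusted p = 0.000464), and Terf2ip was not called (-0.18, edgeR adjusted p = 0.439). Locus 299 (chr8:65208444-65223263, 6160 bp of exon, no domain) stood at 60.9 to 79.6 CPM in AFSCs, 36.9 to 48.6 CPM in ALSCs and 28.7 to 38.1 CPM in ABSCs, with ALSCs and ABSCs overlapping (log2 fold change -1.12 in ABSCs, edgeR adjusted p = 0.00125). Locus 95 (chr13:14948418-14952225, integrase DNA binding domain) fell from 7.14 to 8.73 CPM in AFSCs to 2.16 to 2.83 CPM in ABSCs (-1.66, edgeR adjusted p = 0.00105).

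Locus 225 (chr4:4230767-4242277, 7010 bp of exon, integrase DNA binding domain) was lower in ABSCs than in both other cell types, at 20.0, 24.5 and 25.8 CPM against 39.0 to 39.4 CPM in AFSCs and 40.4, 52.6 and 55.1 CPM in ALSCs. Its log2 fold change was -0.74 against AFSCs (SE 0.13, edgeR adjusted p = 0.00666) and -1.07 against ALSCs (SE 0.13, edgeR adjusted p = 0.000794). Locus 277 (chr6:134009324-134014572, the same domain) fell by 0.50 in ABSCs on the log2 scale (edgeR adjusted p = 0.00654). Its nearest gene Etv6, an ETS transcription factor, was not called, except with the replicate block in ABSCs against ALSCs (0.31, edgeR adjusted p = 0.0265). Locus 268, with LINE-1 domains, fell from 3.93 ± 0.913 to 1.02 ± 0.346 CPM (SD, n = 3; -1.93, edgeR adjusted p = 0.00454). Locus 116, 22992 bp upstream of the signalling inhibitor Spry2 on its strand, stood at 1.95 to 3.30 CPM in AFSCs and 0.245 to 0.506 CPM in ABSCs (-2.90, edgeR adjusted p = 0.0183), while Spry2 was not called (-0.41, edgeR adjusted p = 0.299) except with the replicate block (edgeR adjusted p = 0.000609). That call of locus 116 was lost without AFSCs 2, AFSCs 3, ABSCs 2 or ABSCs 3. Locus 155 on chromosome 18, 5164 bp upstream of Psd2 (an exchange factor of Arf proteins) on its strand, had 0.147 to 0.202 CPM in ABSCs and 0.719 to 0.985 CPM in AFSCs (-2.29, edgeR adjusted p = 0.00739), and Psd2 fell as well (-1.26, edgeR adjusted p = 0.0259). In ABSCs 1 and ABSCs 2 locus 155 lay at the level of 3 counts (0.147 and 0.157 CPM), so its change rests on few reads. Loci 13, 144 and 219 were lower at log2 fold changes of -1.70, -2.05 and -1.26. Without ABSCs 2 or AFSCs 3 each of these 3 calls was lost, as were those of loci 13 and 144 without ABSCs 3, those of loci 13 and 219 without AFSCs 2 and that of locus 144 without AFSCs 1. Locus 144 stood at 0.157 CPM in ABSCs 2, the level of 3 counts, so its change rests on few reads.

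**Figure D3:**
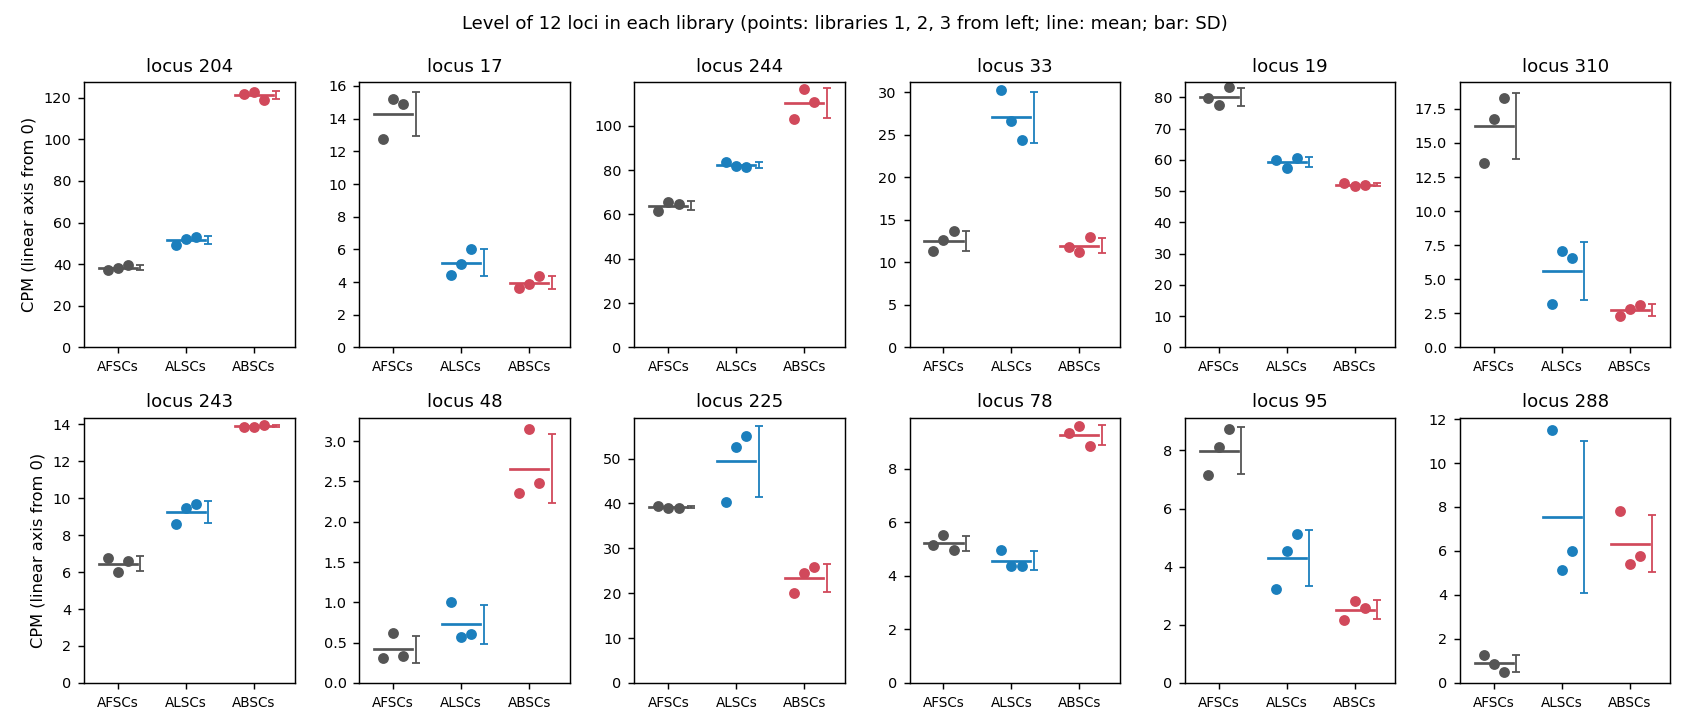
The level of the 12 loci with the smallest adjusted p for any difference, in each of the 9 libraries (points, libraries 1, 2 and 3 from left to right in each cell type) with the mean (line) and SD (bar) in CPM on linear axes that start at 0. Locus 204 sits at 37.2 to 39.5 CPM in AFSCs and 119 to 123 CPM in ABSCs, locus 33 is highest in ALSCs, and loci 17, 19, 310 and 95 are highest in AFSCs.

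The comparison of ALSCs with AFSCs asks which loci differ with LIF in place of bFGF. It called 17 loci (background 7.02%), 6 higher in ALSCs (background 3.43%) and 11 lower (background 3.59%). These were 7.56%, 2.67% and 4.89% of the tested loci. The median log2 fold change was -0.06 over the tested loci and -0.00 over all features. Both this comparison and that of ABSCs use the same 3 AFSCs libraries. The replicate block gave 33 calls (13 higher and 20 lower) that included all 17, or 14.7% of the tested loci beside a background of 22.0%. Without AFSCs 2 the count was 9 and without AFSCs 3 it was 8, and 8 of the 17 held in every fit that left out 1 library.

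Locus 33 rose in ALSCs and was not called in ABSCs against AFSCs. It lies on chromosome 10 (chr10:24326061-24331445, 5385 bp in a single block with the integrase DNA binding domain), 23270 bp downstream of Moxd1, a monooxygenase gene. It stood at 11.3, 12.6 and 13.7 CPM in AFSCs, 30.2, 26.6 and 24.4 CPM in ALSCs and 11.8, 11.2 and 12.9 CPM in ABSCs. ALSCs were clear of the other cell types, which overlapped. The log2 fold change was 1.11 against AFSCs (SE 0.12, edgeR adjusted p = 0.000897), and ABSCs were below ALSCs by -1.18 (SE 0.12, edgeR adjusted p = 0.000289). Moxd1 was not called in ALSCs against AFSCs (0.19, edgeR adjusted p = 0.622), and it was lower in ABSCs than in ALSCs (-1.02, edgeR adjusted p = 0.00865). It was also lower in ABSCs than in AFSCs (-0.83, edgeR adjusted p = 0.0277), where locus 33 gave -0.06 (edgeR adjusted p = 0.859), so gene and locus shared a call in only 1 of the 3 comparisons.

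Higher in ALSCs were also loci 204, 243, 244 and 288, with the values given above, and locus 64 (1.12, edgeR adjusted p = 0.0306), which held in only 3 of the 9 fits that left out 1 library. Lower in ALSCs were loci 17, 19, 95, 116, 268, 277, 299 and 310, which were also lower in ABSCs, and 3 that were not called there, of which the replicate block called locus 175 there too (-1.02, edgeR adjusted p = 0.00328). Without AFSCs 3 the calls of loci 95, 116, 268, 277, 299 and 310 in ALSCs were lost, and without AFSCs 2 the same ones were lost except that of locus 310. The calls of loci 95 and 116 were also lost without ALSCs 2, and that of locus 277 without AFSCs 1 or ALSCs 3. Locus 116 stood at 0, 0.104 and 0.558 CPM in ALSCs (-3.67, SE 0.68, edgeR adjusted p = 0.0114), so its change rests on few reads. Locus 175 (chr19:44685796-44688017) lies 4349 bp downstream of the table's lincRNA Gm26644 on its strand and overlaps Gm26644 as RefSeq and GENCODE M21 draw it. It stood at 6.16, 5.23 and 4.93 CPM in AFSCs, 1.74, 1.66 and 0.761 CPM in ALSCs and 3.97, 2.25 and 2.02 CPM in ABSCs. Its log2 fold change in ALSCs was -1.96 (SE 0.34, edgeR adjusted p = 0.00885), and Gm26644 fell by 2.13 (edgeR adjusted p = 0.00547) on the log2 scale. Locus 23, 2872 bp upstream of Shprh, a ubiquitin ligase of DNA repair, on its strand, stood at 6.27 to 6.76 CPM in AFSCs and 2.89 to 3.38 CPM in ALSCs (-1.02, edgeR adjusted p = 0.00697), and Shprh fell by 0.28 (edgeR adjusted p = 0.0388). Locus 342 on chromosome Y stood at 0.514 CPM in AFSCs 1 and 1.46 and 1.64 CPM in AFSCs 2 and AFSCs 3, against 0.0913 to 0.304 CPM in ALSCs (-2.46, edgeR adjusted p = 0.0384). That call was lost without any library other than AFSCs 1 and ABSCs 1. In ALSCs 1 locus 342 lay under the level of 3 counts, so its change rests on few reads.

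The comparison of ABSCs with ALSCs sets BMP4 against LIF. It called 13 loci (background 11.0%), 6 higher in ABSCs (background 5.67%) and 7 lower (background 5.36%), or 5.78%, 2.67% and 3.11% of the tested loci. The median log2 fold change was -0.01 over the tested loci and -0.00 over all features. With the replicate block 38 loci were called (18 higher and 20 lower), or 16.9% beside a background of 28.3%, again with all 13 among them. DESeq2 called 20. The count fell to 8 without ABSCs 2 and to 8 without ABSCs 3, and 7 of the 13 held in every fit that left out 1 library.

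Higher in ABSCs were loci 204, 243, 244, 48, 78 and 284. Locus 284 on chromosome 7 stood at 1.03 to 1.26 CPM in ABSCs and 0.274 to 0.609 CPM in ALSCs (1.38, edgeR adjusted p = 0.0447), and its call was lost without any library other than AFSCs 1 and ALSCs 3, and also under DESeq2, with library size only and without a filter on low counts. Lower in ABSCs were loci 33, 225, 155, 95, 310, 32 and 232. Locus 32 (chr10:22054650-22058639, 900 bp of exon), whose 5′ end lies by the CG-rich start of Gm34267 printed above, stood at 1.83, 1.14 and 1.17 CPM in ALSCs and 0.589, 0.262 and 0.304 CPM in ABSCs, and AFSCs, at 0.566 to 0.719 CPM, overlapped ABSCs and lay below ALSCs. Its log2 fold change was -1.82 (SE 0.38, edgeR adjusted p = 0.0126). Locus 232 (chr4:129122146-129125903, 501 bp of exon) lies 109 bp upstream of Hpca, the calcium sensor hippocalcin, on its strand. It stood at 1.05, 0.780 and 0.964 CPM in ALSCs and 0.245, 0.262 and 0.152 CPM in ABSCs (-2.06, SE 0.43, edgeR adjusted p = 0.0138), and Hpca was not called (-0.86, edgeR adjusted p = 0.224) except with the replicate block (-0.85, edgeR adjusted p = 0.04). The value of locus 232 in ABSCs 3 equals 3 counts, so its change rests on few reads. The span of Hpca over all its RefSeq transcripts covers this locus, so reads of the locus and of such a transcript cannot be told apart. Its call was lost without ABSCs 3, that of locus 155 without ABSCs 2, and that of locus 32 without either. The calls of loci 95 and 310 in this comparison were each lost without any 1 of 8 libraries, every one but ALSCs 1.

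Across the 3 comparisons the 53 calls fell on 30 loci. Loci 204, 243 and 244 were called higher in ABSCs than in ALSCs and higher in ALSCs than in AFSCs, and loci 95 and 310 were called lower in the same order. Loci 17, 19, 116, 268, 277 and 299 were lower in both derived cell types with no call between them, and loci 64 and 288 were higher in both. The replicate block did call loci 19 (-0.19, edgeR adjusted p = 0.0188) and 299 (-0.41, edgeR adjusted p = 0.000329) lower in ABSCs than in ALSCs. Of the 53 calls 31 held in every fit that left out 1 library.

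Each tested locus was then set beside its nearest annotated gene, where that gene was also tested. This gave 119 pairs with 113 genes. The log2 fold changes of locus and gene correlated across pairs at r = 0.514 in ABSCs against AFSCs, 0.46 in ALSCs against AFSCs and 0.328 in ABSCs against ALSCs. These values describe the pairs only: both members come from the same libraries and without strand, and some pairs share a gene. A locus may also be part of its neighbour. Locus 175 overlaps Gm26644 as RefSeq and GENCODE M21 draw it, and the RefSeq span of Hpca covers locus 232. The values of r may thus partly set a transcript against itself, which was not tested. Locus and gene were both called in the same direction in 4, 3 and 1 pairs and in opposite directions in 0. With the replicate block these counts were 14, 8 and 6 in the same direction and 0, 1 and 4 in opposite directions. Without the block, the 4 pairs called in the same direction in ABSCs against AFSCs were loci 243 and 244 with Gm16001, locus 288 with Zfp575 and locus 155 with Psd2. In ALSCs against AFSCs the pair of locus 175 and Gm26644 was among the 3. The locus alone was called in 8, 8 and 6 pairs, among them locus 19 beside Cyb5r1 and locus 310 beside Terf2ip.

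The correlation differed between choices of gene and between sets of pairs. Each choice of gene also gave a different set of loci, so the effect of the choice alone cannot be told. With the nearest protein-coding gene (155 pairs) r was 0.198, 0.294 and 0.14 in the same order of comparisons, and with the nearest gene on the same strand (95 pairs) it was 0.422, 0.423 and 0.267. In 12 pairs, locus 175 with Gm26644 included, the locus lay within 5000 bp downstream of the gene on its strand. For these, r was 0.733, 0.814 and 0.479. For the 31 pairs with a retroviral or LINE-1 locus it was 0.809, 0.635 and 0.56, and 3 of these pairs, loci 122, 123 and 129, share the gene Kcnv1 (a potassium channel subunit), which was called only with the replicate block, in ABSCs against AFSCs (1.21, edgeR adjusted p = 0.0319). For the 84 pairs with a locus without a domain it was 0.368, 0.386 and 0.283.

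**Figure D4:**
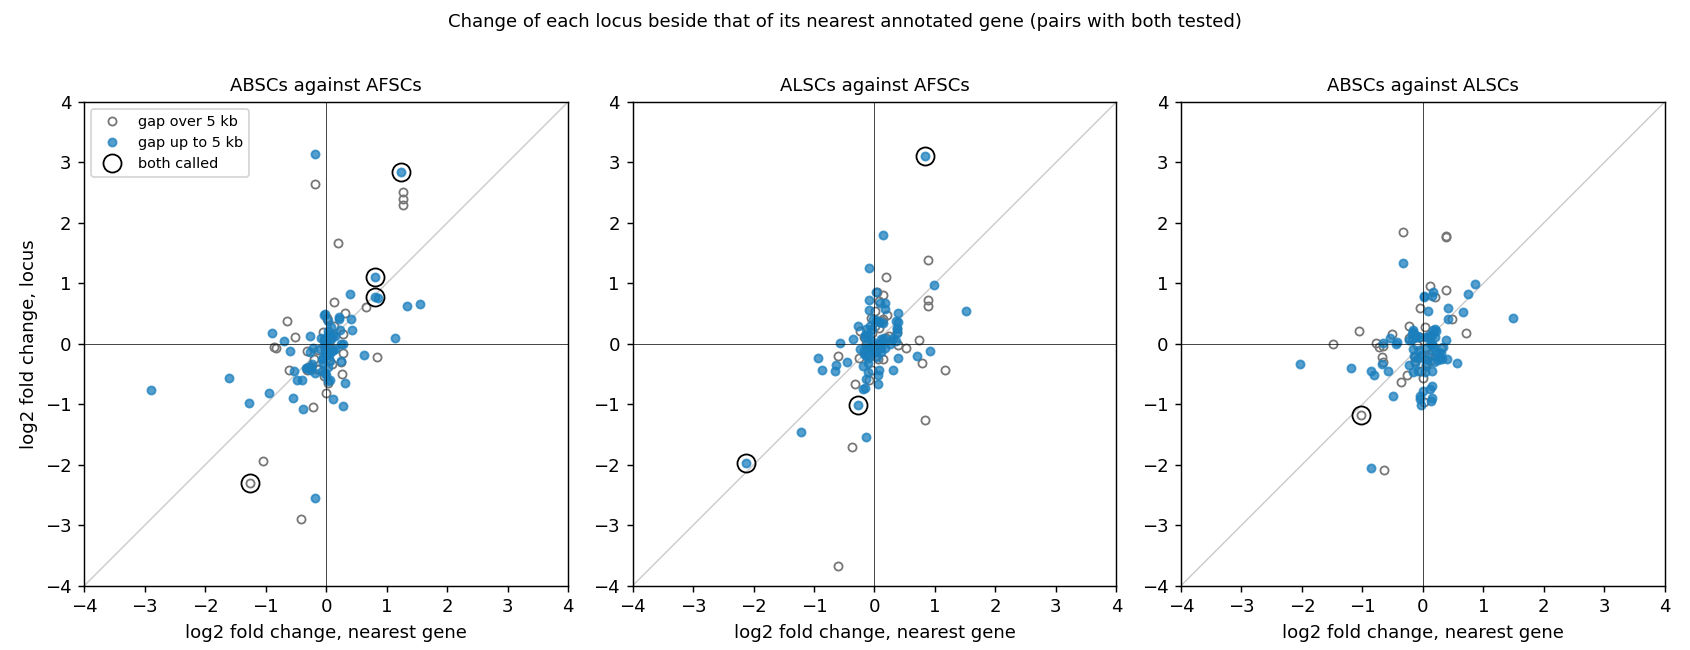
The log2 fold change of each locus (y axis) against that of its nearest annotated gene (x axis) for the 119 pairs with both tested, in the 3 comparisons; filled points have a gap of at most 5000 bp, and a ring marks pairs with both called. The ringed pairs, 4, 3 and 1 in number, all lie in the quadrants of equal sign.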

How the data were processed

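Poly-A RNA of 9 libraries was made into cDNA, per the labels' protocols, which name the NEBNext Ultra RNA kit, a kit that does not mark the strand. The protocols name the RNeasy Micro kit for RNA of ALSCs and the RNeasy Mini kit for the collected cells, so if these kits differed by cell type, kit and cell type cannot be told apart for ALSCs. The submitters' processing notes name HISAT2 2.0.5 and featureCounts 1.5.0-p3. The authors deposited unscaled counts for each gene or locus, and how the loci were assembled and their domains predicted is not given in the sources used here. The notes name the build mm9, but 53548 of 54495 shared Ensembl genes (98.26%) have their GENCODE M21 coordinates, so the table's coordinates are read as GRCm38.

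Rows whose ID is not an Ensembl ID were taken as loci. All rows entered 1 edgeR 4.0.16 fit (R 4.3.3): filterByExpr with a minimum count of 10 and total of 15, TMM, 9 libraries, group means, robust quasi-likelihood F tests (2-sided, 6 residual degrees of freedom), and Benjamini-Hochberg adjustment over 16433 features. A feature is called where the adjusted p was under 0.05. CPM are TMM-scaled, SE is the absolute log2 fold change over the square root of F, and 3 counts correspond to 0.137 to 0.157 CPM per library. That floor is a fixed level and not an estimate of counting error.

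The members, lists and tests were chosen with earlier results of these data known. Named are the 10 loci with the highest mean, the 10 called loci at 1 CPM or more with the largest change per comparison, the 5 longest and 5 shortest tested loci and their neighbours. Called loci 30, 49, 155, 219 and 232 fall outside that rule and were named after their values were seen, as were loci 105, 122, 129 and 320.

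The labels number the libraries 1 to 3. Deviations from group means of same-numbered libraries correlated at 0.195 to 0.556. The main fit did not use the numbers, and a fit with the number as a block was run as an alternative. Same-numbered pairs of numbers 2 and 3 (0.195 to 0.356) were much like pairs of number 2 with number 3 (0.215 to 0.273). Number 1 stood apart from both (-0.427 to -0.298), so pairing by number is not shown beyond number 1. Alternatives were DESeq2 1.42.0 and its size factors, library size only, no filter, the replicate block, and each library left out. The fit was tested on simulated data.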

Additional observations from a re-analysis of the deposited data

How the results depend on the processing

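All directions of the 53 calls on named loci were kept in every alternative run. The calls themselves were all kept by the replicate block, by DESeq2's size factors and by the libraries numbered 2 and 3 only, an alternative chosen after seeing the data; the call of locus 284 in ABSCs against ALSCs was lost under DESeq2, with library size only and without a filter on low counts, and the last also lost those of loci 64 and 123 in ABSCs against AFSCs, 243 in ALSCs against AFSCs and 95 in ABSCs against ALSCs. The replicate block gave 44, 33, 38 and 57 loci and 3199, 3618, 4654 and 6079 features for ABSCs against AFSCs, ALSCs against AFSCs, ABSCs against ALSCs and any difference, and the libraries numbered 2 and 3 alone gave 51, 40, 47 and 66 loci and 4644, 4139, 5255 and 7159 features. DESeq2 called 20 loci in ABSCs against ALSCs. Leaving out 1 library gave 17 to 29, 8 to 18, 8 to 19 and 21 to 34 loci in the same order, and 683 to 1758, 356 to 1531, 849 to 2354 and 1418 to 3077 features. With protein-coding genes and loci as the total, the loci held 0.2297% of AFSCs counts and 0.2249% of ALSCs counts, against 0.2237% and 0.219% of all counts. The correlation of locus and gene was 0.198, 0.294 and 0.14 with the nearest protein-coding gene and 0.344, 0.238 and 0.131 without a filter, the latter chosen after seeing the data; the cause was not tested. The other alternatives run for that correlation were also chosen after seeing the data, except for the other choices of gene. They gave 0.422 to 0.529, 0.401 to 0.461 and 0.227 to 0.356 in the same order of comparisons. No interval is given, since the pairs are not independent. At this depth, loci under about 0.137 CPM in a library rest on fewer than 3 counts.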

Other observations

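Some of the longest loci varied with the library number. Locus 210 (chr3:96311051-96320230, 9180 bp in a single block with gag, protease, reverse transcriptase, RNase H and integrase domains) stood at 16.5 CPM in AFSCs 1, 4.61 CPM in ALSCs 1 and 7.06 CPM in ABSCs 1, and at 25.4 to 36.4 CPM in the 6 libraries numbered 2 or 3. Locus 248 (chr5:31402329-31434922, 10237 bp of exon with an env domain) stood at 9.40, 7.40 and 5.00 CPM in the libraries numbered 1 and at 15.3 to 26.5 CPM in the others. Neither was called in any of the 3 comparisons, but with the replicate number as a block locus 248 was called in all 3: lower in ABSCs than in AFSCs (-0.68, edgeR adjusted p = 0.000328), in ALSCs than in AFSCs (-0.34, edgeR adjusted p = 0.0301) and in ABSCs than in ALSCs (-0.34, edgeR adjusted p = 0.0313). Locus 210 was not called with the block either. Of the 30 loci that differed among cell types, library 1 was the lowest of its group in all 3 groups for 9 and the highest in all 3 for 3. The share over all features was not counted. Over all tested features the libraries numbered 1 also stood apart, with correlations of deviations of -0.427 to -0.298 to the others. Without the share over all features, the counts of 9 and 3 cannot tell whether these loci differ from other features. This pattern was noticed in the data and was not tested.

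A cluster of LINE-1 loci on chromosome 15 beside Kcnv1 had its highest values in 2 of the 3 ABSCs libraries. Locus 122 stood at 0.196, 1.31 and 1.42 CPM and locus 129 at 0.442, 6.19 and 9.05 CPM in ABSCs 1, 2 and 3, beside the values of locus 123 given in the report. AFSCs lay at 0.154 to 0.236 CPM for locus 122 and 0.462 to 1.22 CPM for locus 129. Loci 122 and 129 were not called in ABSCs against AFSCs (edgeR adjusted p = 0.184 and 0.102), but both were with the replicate block (2.26 and 2.33, edgeR adjusted p = 0.00783 and 0.0117). Locus 129 overlaps locus 123 on the other strand, so they are not independent measurements.

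Locus 320, on an unplaced scaffold, carries ubiquitin and ribosomal protein S27a domains and had no annotated neighbour. It stood at 40.2, 26.6 and 9.76 CPM in the 3 AFSCs libraries, a wider spread than between the group means of 25.5, 18.9 and 12.5 CPM in AFSCs, ALSCs and ABSCs.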
